A study of Mus musculus with 12 samples.

Results

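Genes of osteoblasts and osteocytes, 10 in number, were followed in bulk RNA sequencing of mouse tissue from beside the spine, and all 10 were found among the 18996 genes of the count table. They were chosen by their measured values in the same 12 mice, compared across the same groups, so their levels and fold changes are given as a description. The groups were No operation, SHAM and Laminectomy, with 4 BALB/c mice each, aged 5 to 7 weeks. No operation mice gave unoperated paraspinal soft tissue. In SHAM mice the paraspinal soft tissue was removed with the laminae kept, and in Laminectomy mice the laminae and spinous processes were excised as well, down to the dura. Tissue of both surgical groups, which held scar, was taken on day 7 after surgery. Between 16802988 and 18077863 counts fell on genes in each mouse.

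Osteoblasts arise from mesenchymal precursors under the transcription factors RUNX2 and osterix, then make alkaline phosphatase and a matrix of collagen, bone sialoprotein and osteocalcin that takes up mineral. Some become enclosed in that matrix as osteocytes, which express genes for phosphate handling and for sclerostin, an inhibitor of Wnt signalling. In the spine these cells belong to the vertebrae, which lie against the paraspinal muscle, and new bone can form where a lamina has been cut.

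Some libraries stood apart from the rest of their group in these genes. Summed over the 10 genes, the normalised read count (CPM, the count relative to the TMM-scaled library size) was 26.8, 624, 195 and 43.2 CPM without an operation (mice 1 to 4), 28.8, 153, 73.6 and 161 CPM after SHAM surgery and 1888, 1824, 771 and 689 CPM after laminectomy. No operation replicate 2, and to a lesser degree replicate 3, was therefore far above the other unoperated mice, and SHAM replicate 1 was below the other SHAM mice. Markers of bone marrow were highest in the same unoperated libraries. The 7 genes listed for granulocyte precursors summed to 24.1, 3011, 1085 and 22.1 CPM without an operation, 4.999, 65.7, 163 and 618 CPM after SHAM surgery and 270, 1385, 2086 and 318 CPM after laminectomy. None of these genes was at 0 in every mouse, the most abundant was *Ngp*, and their part in the results was not tested. In bulk tissue, fewer cells of a type and less RNA per cell cannot be told apart.

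The transcription factor genes came first in order of role. *Runx2* (identifier 12393, chromosome 17 of GRCm38, 44495987 to 44814797), which commits precursors to the osteoblast lineage, was at 7.92, 39.1, 15.2 and 3.85 CPM without an operation (mice 1 to 4), 26.1, 30.6, 29.7 and 40.3 CPM after SHAM surgery and 81.0, 62.1, 56.0 and 45.3 CPM after laminectomy. Every Laminectomy mouse was above every mouse of the other groups, while SHAM and No operation mice overlapped. In SHAM replicate 1, where the other members were at 1.35 CPM or less, *Runx2* was close to the other SHAM mice. The log2 fold change of *Runx2* was 1.88 ± 0.534 (SE) between Laminectomy and No operation mice, 0.93 ± 0.525 between SHAM and No operation mice and 0.95 ± 0.517 between Laminectomy and SHAM mice. Without No operation replicate 2, the first became 2.76 and the second 1.81. An exon of an antisense gene, *Runx2os1*, overlaps *Runx2*. The study reports counting with default settings, which do not use strand, but some deposited values are not whole. How reads in the overlap were assigned is therefore not known.

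*Sp7* (identifier 170574, chromosome 15, 102356603 to 102367035) encodes osterix, which acts after RUNX2. It was at 0.138, 35.8, 11.4 and 0.350 CPM without an operation, 0.225, 6.36, 3.70 and 7.42 CPM after SHAM surgery and 62.6, 55.8, 27.8 and 26.6 CPM after laminectomy. All Laminectomy mice were above all SHAM mice, but No operation replicate 2 lay within the range of the Laminectomy mice. Laminectomy exceeded SHAM by 3.28 ± 1.21 (SE) on the log2 scale. Against No operation mice it was 1.85 ± 1.13 in Laminectomy mice and -1.43 ± 1.16 in SHAM mice, and without No operation replicate 2 it was 3.43 and 0.15, so the direction for SHAM mice turned with that library.

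The genes of the early osteoblast followed. *Alpl* (identifier 11647, chromosome 4, 137741731 to 137796384), the alkaline phosphatase that breaks down the mineralization inhibitor pyrophosphate, was at 17.4, 76.7, 36.4 and 35.2 CPM without an operation, 1.35, 13.0, 9.05 and 14.6 CPM after SHAM surgery and 163, 179, 68.6 and 62.5 CPM after laminectomy. All SHAM mice were below all others, although with total counts as library sizes SHAM and No operation mice overlapped, and Laminectomy mice overlapped with No operation replicate 2. The log2 fold change of *Alpl* was -2.12 ± 0.641 (SE) between SHAM and No operation mice, 3.63 ± 0.675 between Laminectomy and SHAM mice and 1.51 ± 0.616 between Laminectomy and No operation mice. In No operation replicates 1 and 4 *Alpl* had 253 and 503 counts, where *Bglap* and *Bglap2* together had 0 and 15.

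*Ibsp* (identifier 15891, chromosome 5, 104299287 to 104311472) encodes bone sialoprotein, a matrix protein that binds hydroxyapatite and integrins. It was at 0.482, 224, 74.0 and 1.05 CPM without an operation, 0.393, 96.9, 25.3 and 77.7 CPM after SHAM surgery and 1498, 1374, 573 and 501 CPM after laminectomy. The lowest Laminectomy mouse was above the highest mouse of the other groups. The log2 fold change of *Ibsp* was 4.30 ± 1.66 (SE) between Laminectomy and SHAM mice, 3.72 ± 1.61 between Laminectomy and No operation mice and -0.58 ± 1.46 between SHAM and No operation mice, and without No operation replicate 2 the value for Laminectomy against No operation was 5.29 and that for SHAM 0.99. With the replicate number as a block they were 5.22 and 0.06. Without SHAM replicate 1 it was 3.90 between Laminectomy and SHAM mice.

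Osteocalcin, the vitamin K-dependent protein of mature osteoblasts, is encoded in the mouse by neighbouring gene copies. *Bglap* (identifier 12096, chromosome 3, 88383495 to 88384466) was at 0, 122, 28.1 and 0.802 CPM without an operation, 0, 2.72, 0.912 and 8.57 CPM after SHAM surgery and 39.3, 56.6, 12.3 and 26.0 CPM after laminectomy. *Bglap2* (identifier 12097, chromosome 3, 88377736 to 88378701) was at 0, 38.7, 9.80 and 0.249 CPM without an operation, 0, 0.376, 0.0932 and 2.26 CPM after SHAM surgery and 10.1, 21.5, 5.63 and 7.83 CPM after laminectomy. For both copies Laminectomy mice did not overlap with SHAM mice, but the highest mouse of all was No operation replicate 2. The log2 fold change of *Bglap* was 3.45 ± 1.54 (SE) between Laminectomy and SHAM mice and -0.18 ± 1.35 between Laminectomy and No operation mice. The sign of the latter turned without No operation replicate 2 (1.79) or Laminectomy replicate 3 (0.10), and with the replicate number as a block (0.78). For *Bglap2* the same comparisons gave 4.03 ± 1.54 and -0.12 ± 1.29, and the latter was 1.74 without No operation replicate 2, 0.11 and 0.02 without Laminectomy replicates 3 and 4, and 0.76 with the block. Between SHAM and No operation mice the log2 fold change was -3.63 ± 1.55 for *Bglap* and -4.15 ± 1.55 for *Bglap2*, and -1.66 and -2.29 without No operation replicate 2. Without SHAM replicate 4 these were -4.95 and -6.18, and between Laminectomy and SHAM mice 4.78 for *Bglap* and 6.06 for *Bglap2*.

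Reads of the osteocalcin copies are hard to assign, so the value of each copy is uncertain. The coding sequences of *Bglap* and *Bglap2* in GENCODE are 288 bases long and differ at 4 of them, an identity of 98.6%. Of the 341 stretches of 100 bases, a length set here to stand for a read, in the *Bglap* transcript, 192 (56.3%) also occur in that of *Bglap2*. The first 60 coding bases of each, on the minus strand, hold 3 of the differing bases and are shown because they are what separates the copies, with the differing bases in capitals.
Bglap, chr3:88384356-88384415 (GRCm38): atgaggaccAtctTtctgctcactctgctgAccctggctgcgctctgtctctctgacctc
Bglap2, chr3:88378591-88378650 (GRCm38): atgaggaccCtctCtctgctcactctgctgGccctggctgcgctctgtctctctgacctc
The other copy, *Bglap3* (identifier 12095, chromosome 3, 88368616 to 88372741), was at no more than 0.809 CPM in any mouse and was left untested by the filter on low counts. The deposited values of single copies are often not whole numbers, while their sum over the 3 copies is whole, within 0.02 counts, in all 12 mice.

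The genes of osteocytes came last. *Dmp1* (identifier 13406, chromosome 5, 104197575 to 104214102), an acidic matrix protein of osteocytes that regulates mineralization, was at 0.620, 55.3, 10.7 and 0.981 CPM without an operation, 0.505, 2.03, 1.91 and 6.72 CPM after SHAM surgery and 27.8, 42.6, 16.9 and 15.3 CPM after laminectomy. *Phex* (identifier 18675, chromosome X, 157162075 to 157415286), an endopeptidase of phosphate regulation, was at 0.207, 22.3, 5.46 and 0.701 CPM without an operation, 0.225, 0.695, 1.85 and 2.72 CPM after SHAM surgery and 5.66, 18.5, 6.47 and 3.39 CPM after laminectomy. Both were higher in all Laminectomy mice than in all SHAM mice, and both were highest in No operation replicate 2. The log2 fold change of *Dmp1* was 3.19 ± 1.18 (SE) between Laminectomy and SHAM mice and 0.60 ± 1.06 between Laminectomy and No operation mice, the latter 2.63 without No operation replicate 2. For *Phex* these values were 2.62 ± 1.16, 0.25 ± 1.06 and 1.99. The first was 1.90 without Laminectomy replicate 2, and the second was -0.47 without that mouse, and -0.16 and -0.14 without No operation replicates 1 and 4. Between SHAM and No operation mice the log2 fold change was -2.60 ± 1.16 for *Dmp1* and -2.38 ± 1.15 for *Phex*, and -0.56 and -0.63 without No operation replicate 2. Without SHAM replicate 4 *Dmp1* was at -3.50 there and at 4.10 between Laminectomy and SHAM mice.

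*Mepe* (identifier 94111, chromosome 5, 104325329 to 104338611), a matrix phosphoglycoprotein of osteocytes, was at 0, 6.99, 2.26 and 0 CPM without an operation, 0, 0.0535, 0.847 and 0.373 CPM after SHAM surgery and 0.317, 8.73, 3.47 and 0.782 CPM after laminectomy. *Sost* (identifier 74499, chromosome 11, 101962458 to 101967015), which encodes sclerostin, was at 0, 3.21, 1.33 and 0 CPM without an operation, 0, 0.160, 0.212 and 0.0534 CPM after SHAM surgery and 0.212, 4.42, 0.984 and 0.156 CPM after laminectomy. For these 2 genes every pair of groups overlapped, and No operation replicate 2 and Laminectomy replicate 2 held the highest values. *Sost* had 3, 4 and 1 counts in SHAM replicates 2 to 4 and 4 and 3 counts in Laminectomy replicates 1 and 4, so no fold change is given for either gene. Laminectomy replicate 1, which had the highest *Ibsp* and *Sp7* of all mice, had 6 counts of *Mepe* and 4 of *Sost*.

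**Figure D1:**
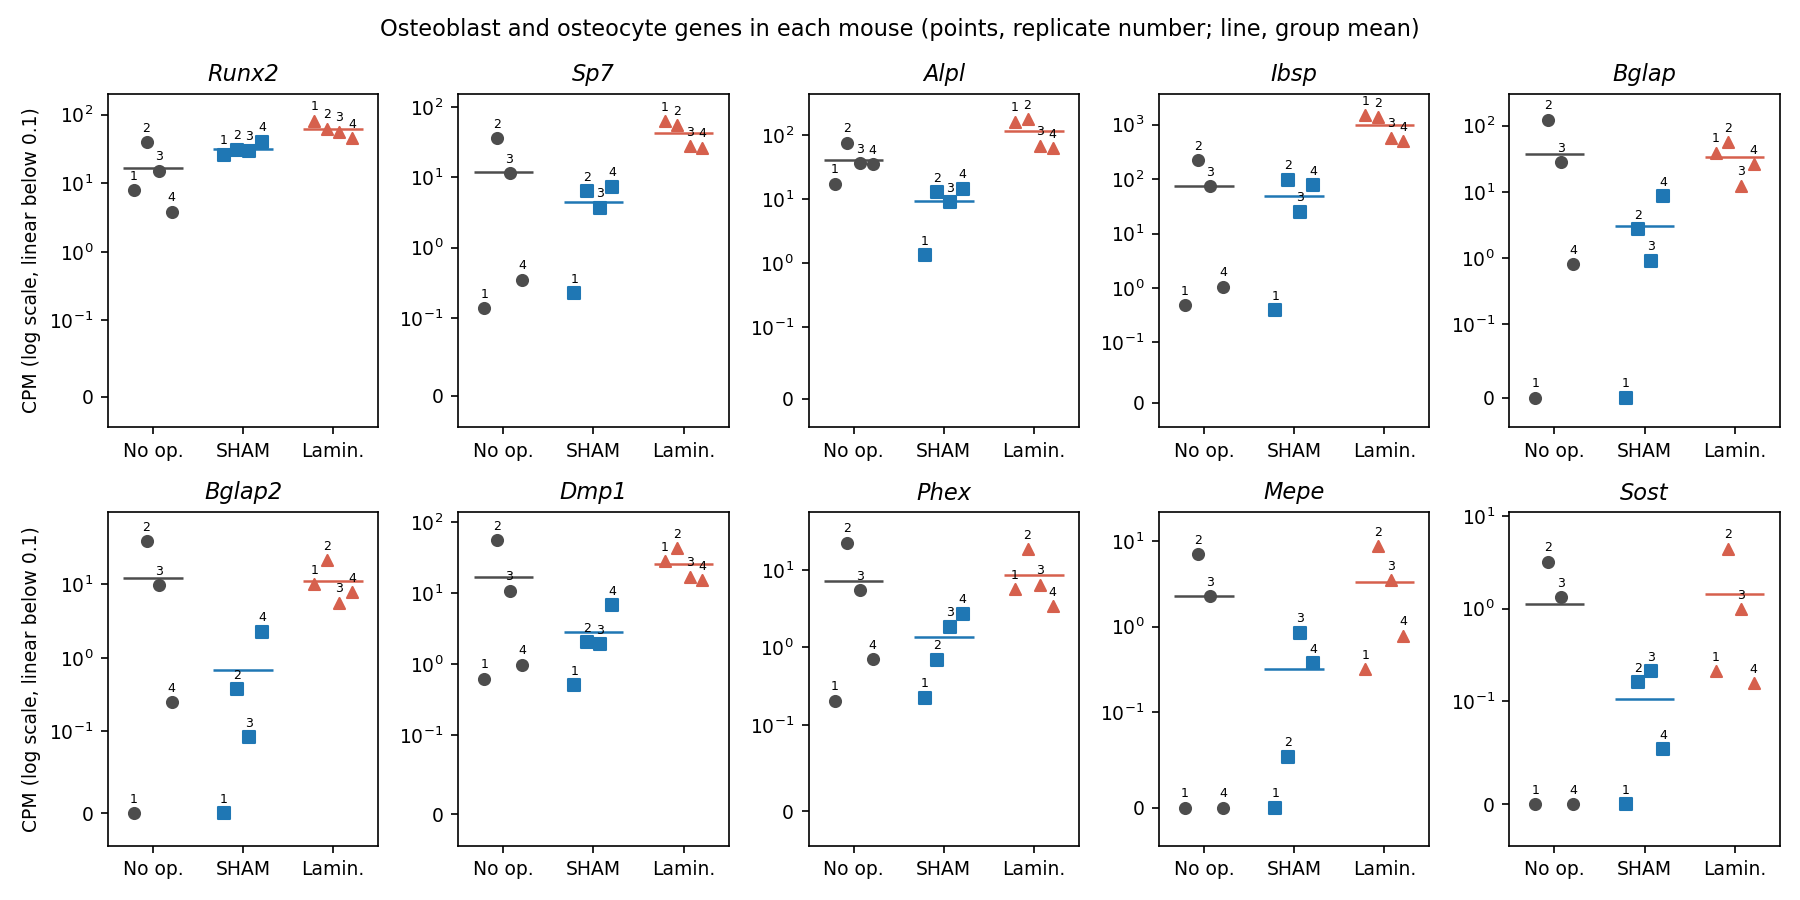
Normalised read counts (CPM, on a log scale that is linear below 0.1) of the 10 genes in No operation (No op.), SHAM and Laminectomy (Lamin.) mice, with a point and replicate number for each mouse and a line at each group mean. *Ibsp* lay between 501 and 1498 CPM in Laminectomy mice, above all other mice, while *Bglap* was highest in No operation replicate 2 at 122 CPM.

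Levels of different genes were compared per length, as mean CPM per kilobase of annotated exons. On this scale the order in Laminectomy mice was led by *Ibsp* at 477 CPM per kilobase, followed by *Bglap* at 54.3, *Alpl* at 29.3 and *Bglap2* at 23.9 CPM per kilobase. In No operation mice *Bglap* came first at 61.2 CPM per kilobase, ahead of *Ibsp* at 36.2 CPM per kilobase, and both means rested on replicates 2 and 3. In SHAM mice *Ibsp* led at 24.2 CPM per kilobase, with *Bglap* at 4.94 and *Runx2* at 3.58 CPM per kilobase. *Sost* was the lowest of the 10 genes per kilobase in each group. The spread between mice was wide, and the SD of *Ibsp* in No operation mice (105 CPM) exceeded its mean (74.8 CPM). Of the 9 pairs of neighbours in each order, only *Ibsp* and *Bglap* in Laminectomy mice did not overlap.

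A ratio of counts within each library does not depend on its scaling. The counts of *Ibsp* for each count of *Bglap* and *Bglap2* together were 1.39, 1.95 and 1.00 in No operation replicates 2, 3 and 4, 31.2, 25.2 and 7.18 in SHAM replicates 2, 3 and 4, and 30.3, 17.6, 31.9 and 14.8 in Laminectomy mice. The ratio was higher in every operated mouse than in every unoperated mouse for which it could be given. In No operation replicate 1 and SHAM replicate 1 osteocalcin was at 0 counts and *Ibsp* at 7, so no ratio was formed, and in No operation replicate 4 it rests on 15 counts of each. *Sp7* relative to *Dmp1*, an early against a late gene, gave 0.648 and 1.06 in No operation replicates 2 and 3, 1.10 to 3.13 in SHAM replicates 2 to 4 and 1.31 to 2.25 in Laminectomy mice. *Alpl* relative to osteocalcin, also an early against a late gene, overlapped between groups, at 0.476 to 33.5 in 3 No operation mice, 1.35 to 9.0 in 3 SHAM mice and 1.85 to 3.82 in Laminectomy mice. *Dmp1* relative to osteocalcin, both late genes, overlapped between groups, at 0.282 to 0.933 in 3 No operation mice, 0.621 to 1.89 in 3 SHAM mice and 0.451 to 0.942 in Laminectomy mice. These ratios were chosen after the values were seen and were not tested.

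**Figure D2:**
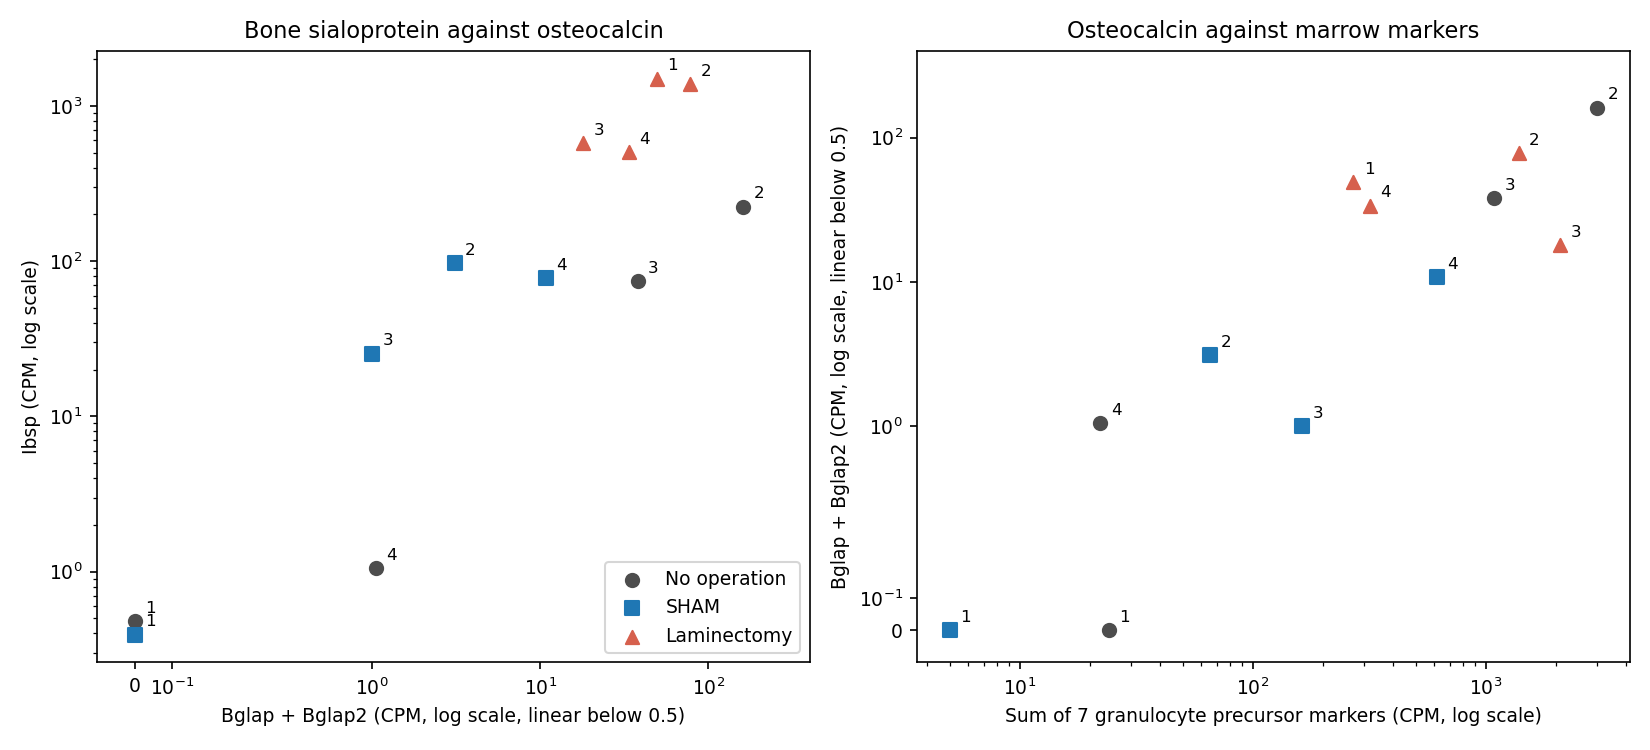
Left, *Ibsp* against the sum of *Bglap* and *Bglap2*, and right, that sum against the summed markers of granulocyte precursors, all in CPM on log scales (linear below 0.5 for osteocalcin), with a numbered point for each mouse. Laminectomy replicate 4 had 33.8 CPM of osteocalcin and 501 CPM of *Ibsp*, and No operation replicate 3 had 37.9 and 74.0 CPM.

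Across all genes, 14765 passed the filter on low counts, among them all 10 members. Calls were made with edgeR's quasi-likelihood test, where the p adjusted by Benjamini-Hochberg had to be under 0.05 and the log2 fold change over 0.5 in size. Between SHAM and No operation mice, 0 members were called higher, against 25.7% of all genes tested, and 2 lower (*Alpl* and *Bglap2*), against 25.1%. DESeq2 called 0 higher and 5 lower there, beside 3892 and 3780 of all 14765 genes, and 4 members had an unadjusted p below 0.05 in edgeR, beside 9700 of all genes. Between Laminectomy and No operation mice, 1 member was called higher (*Runx2*), against 24.2%, and 0 lower, against 24.4%. In that comparison DESeq2 called 3 higher and 0 lower, beside 3749 and 3586 of all genes, and 3 members had an unadjusted p below 0.05 in edgeR, beside 9450 of all genes. Leaving out No operation replicate 2 raised the members called higher to 5 (*Runx2*, *Sp7*, *Alpl*, *Ibsp* and *Dmp1*). Leaving out No operation replicate 1 raised those called lower in SHAM mice to 6, while only *Alpl* was called lower without No operation replicate 2 or 3 or SHAM replicate 1, 2 or 3. Both comparisons share the No operation mice.

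Between Laminectomy and SHAM mice edgeR called 0 members and 0 of all genes in either direction, a share of 0%. At an unadjusted p below 0.05, edgeR gave 8 members and 2360 genes, and DESeq2 called 1 member (*Alpl*) and 601 genes. In 8 of the 10 genes all Laminectomy mice were above all SHAM mice, which held for 5.07% of all genes tested, and in 0 they were all below, which held for 5.07% as well. Against No operation mice, 2 genes (*Runx2* and *Ibsp*) were higher in every Laminectomy mouse, beside 27.0% of all genes, and 0 were lower, beside 29.0%. In SHAM mice 0 were higher in every mouse, beside 26.7%, and 1 (*Alpl*) was lower, beside 27.8%, though not with total counts as library sizes. Nothing is read from these counts, since the members were selected on the same contrasts. The median log2 fold change of the 10 genes was 3.40 between Laminectomy and SHAM mice, 0.56 between Laminectomy and No operation mice and -2.49 between SHAM and No operation mice, beside 0.00, 0.01 and 0.00 over all genes tested. Without No operation replicate 2, the fold change against No operation mice rose for every member in both surgical groups. *Dmp1*, for example, went from 0.60 to 2.63 in Laminectomy mice and from -2.60 to -0.56 in SHAM mice. The medians of 0.56 and -2.49 therefore depend on that library. The medians include *Mepe* and *Sost*, whose single fold changes are not given.

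Other genes of bone were taken from a list of 47, of which 46 were in the table and 40 were tested. Between Laminectomy and No operation mice 14 were called higher and 5 lower, beside 24.2% and 24.4% of all genes tested. Between SHAM and No operation mice 10 were called higher and 9 lower, beside 25.7% and 25.1%. Between Laminectomy and SHAM mice edgeR called 0, with 18 at an unadjusted p below 0.05, beside 2360 of all 14765 genes. DESeq2 called 10 higher and 1 lower, beside 265 and 336 of all genes. In 15 of the 40 all Laminectomy mice were above all SHAM mice and in 2 all were below, each beside 5.07% of all genes. The listed genes tested had a median log2 fold change of 0.37 between Laminectomy and SHAM mice. It was 0.20 between Laminectomy and No operation mice and -0.15 between SHAM and No operation mice. Leaving out No operation replicate 2 raised the 14 to 20. For edgeR calls against No operation mice, the same shares of all genes tested stand beside the counts by role and by marker list below.

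Of 10 osteoblast transcription factors tested, 1 was called. *Twist2*, a repressor of osteoblast differentiation that fibroblasts also express, was at 4.68, 3.90, 4.93 and 3.57 CPM without an operation, 22.0, 18.2, 9.69 and 12.3 CPM after SHAM surgery and 2.75, 4.01, 5.28 and 5.84 CPM after laminectomy. SHAM mice were above all others without overlap. Its log2 fold change was 1.86 ± 0.294 (SE, adjusted p = 0.000233 by edgeR) between SHAM and No operation mice and -1.80 ± 0.291 (adjusted p = 0.0698 by edgeR) between Laminectomy and SHAM mice, where DESeq2 called it.

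Of 9 bone matrix genes tested, 6 were called higher and 1 lower in Laminectomy mice, and 5 higher and 2 lower in SHAM mice, relative to No operation mice. *Spp1*, which encodes osteopontin and is also made by macrophages, was at 9.0 to 424 CPM without an operation, 1149 to 2437 CPM after SHAM surgery and 1717 to 3564 CPM after laminectomy, so that both surgical groups overlapped. Its log2 fold change was 3.68 ± 0.819 (SE, adjusted p = 0.00248 by edgeR) between Laminectomy and No operation (4.57 without No operation replicate 2), and DESeq2 gave no adjusted p for it. *Ostn*, which encodes the secreted peptide osteocrin of bone and muscle, fell from 7.40 ± 3.66 CPM (SD, n = 4) in No operation mice to 0.230 ± 0.0934 CPM in SHAM mice and 0.608 ± 0.489 CPM in Laminectomy mice, with an adjusted p of 0.000355 and 0.00169 by edgeR. The fall of *Ostn* stood beside that of the skeletal muscle list, in which 9 of 9 genes were called lower in both surgical groups.

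Of 8 mineralization genes tested, 4 were called higher and 3 lower in Laminectomy mice, and 1 higher and 4 lower in SHAM mice. *Panx3*, a channel protein of osteoblasts and chondrocytes, was at 0, 7.11, 1.33 and 0.280 CPM without an operation, 0.0562, 1.82, 1.80 and 2.13 CPM after SHAM surgery and 26.7, 35.4, 12.8 and 12.8 CPM after laminectomy. Laminectomy mice were above all others, with a log2 fold change of 3.31 ± 1.05 (SE, adjusted p = 0.0174 by edgeR) against No operation mice and 3.91 ± 1.08 (adjusted p = 0.141 by edgeR) against SHAM mice, where DESeq2 called it. Without No operation replicate 2 the former was 5.32. *Ank*, a membrane protein that exports pyrophosphate or its precursor, fell from 198 ± 19.97 CPM (SD, n = 4) in No operation mice to 41.7 ± 9.97 CPM in SHAM mice and 90.4 ± 23.3 CPM in Laminectomy mice, with an adjusted p of 9.71e-06 and 0.000688 by edgeR, and DESeq2 called it between Laminectomy and SHAM mice.

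Of 7 receptor genes tested, 1 was called higher and 1 lower in Laminectomy mice and 2 were called lower in SHAM mice. *Pth1r*, the receptor of parathyroid hormone on osteoblasts, was at 16.9, 45.2, 26.2 and 16.1 CPM without an operation, 23.6, 49.99, 31.5 and 30.8 CPM after SHAM surgery and 108, 97.1, 54.3 and 62.2 CPM after laminectomy. Again all Laminectomy mice were the highest, with a log2 fold change of 1.62 ± 0.362 (SE, adjusted p = 0.00249 by edgeR) against No operation mice and 1.24 ± 0.357 (adjusted p = 0.149 by edgeR) against SHAM mice, where DESeq2 called it. Exons of *Myl3* on the other strand overlap *Pth1r*. *Lrp4*, a receptor for sclerostin that muscle also needs, was lower in SHAM mice (19.3 ± 1.52 CPM, SD, n = 4) than in No operation mice (47.2 ± 17.6 CPM, adjusted p = 0.0018 by edgeR), and in Laminectomy mice it was at 42.7 ± 14.0 CPM, which DESeq2 called higher than in SHAM mice and edgeR did not (adjusted p = 0.114).

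Of 6 further osteocyte genes tested, 3 were called higher in each surgical group, and 1 was called lower in SHAM mice. *Tnfsf11*, which encodes RANKL, the inducer of osteoclasts, was at 0.0701 to 2.45 CPM without an operation, 7.83 to 15.4 CPM after SHAM surgery and 7.71 to 19.0 CPM after laminectomy. Both surgical groups were above No operation mice and overlapped with each other, with a log2 fold change of 3.49 ± 0.619 (SE, adjusted p = 0.000597 by edgeR) in Laminectomy mice and 3.10 ± 0.614 (adjusted p = 0.00107) in SHAM mice. *Pdpn*, a membrane protein of early osteocytes and of stromal cells, was highest in SHAM mice (195 ± 58.8 CPM, SD, n = 4), with 98.5 ± 19.8 CPM in Laminectomy mice and 40.5 ± 27.0 CPM in No operation mice, and its adjusted p against the latter was 0.000399 for SHAM and 0.0118 for Laminectomy by edgeR.

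*Dmp1*, *Ibsp* and *Mepe* lie next to each other on chromosome 5 with *Spp1* and *Dspp*, in 270 kilobases (104170703 to 104441053) that hold the genes of the small integrin-binding ligand N-linked glycoproteins. *Dspp* was not analysed here. SHAM replicate 1, with 1207 CPM of *Spp1*, had 0.393 CPM of *Ibsp*.

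Over the 12 mice, the genes outside the 10 whose log2 CPM was most like that of *Ibsp* were *Nyap2* (Pearson r = 0.987), *Slc13a5* (0.977), *Panx3* (0.973), *Mmp16* (0.963) and *Oscar* (0.959). *Oscar* is a receptor of osteoclasts and is on the osteoclast list below, and *Slc13a5* encodes a citrate transporter. Among those most like *Dmp1* were *Kng1* (0.964), *Dlx5* (0.963), which encodes an osteoblast transcription factor, *Slc13a5* (0.948) and *Btla* (0.945). Among the 10 themselves, *Sp7* and *Ibsp* were most alike (0.989) and *Runx2* and *Alpl* least (0.343). These values describe mice of 3 groups together and are not tests. Some rest on low levels. *Nyap2* had means of 0.928, 0.639 and 6.55 CPM in No operation, SHAM and Laminectomy mice, and *Kng1* 0.920, 0.381 and 2.66 CPM.

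The 250 bases before each gene's start were searched in the RefSeq promoters (GRCm38.p6), which had entries for 8 of the 10 genes. The core letters bound by RUNX factors, TGTGGT, were searched on both strands. They occurred in 4 of 10 windows of the members, beside 14.0% of all 32851 windows. The windows came from 4 of the 8 genes (*Runx2*, *Bglap*, *Dmp1* and *Mepe*), beside 15.9% of all 27025 genes with a window. The matching windows of *Runx2* and *Dmp1* overlap an annotated exon. The windows of *Bglap* (minus strand) and *Mepe* (plus strand) hold matches and no annotated exon, and are shown with the matches in capitals, at 132 bases before the start in *Bglap* and at 118 and 80 bases before it in *Mepe*.
Bglap, chr3:88384467-88384716: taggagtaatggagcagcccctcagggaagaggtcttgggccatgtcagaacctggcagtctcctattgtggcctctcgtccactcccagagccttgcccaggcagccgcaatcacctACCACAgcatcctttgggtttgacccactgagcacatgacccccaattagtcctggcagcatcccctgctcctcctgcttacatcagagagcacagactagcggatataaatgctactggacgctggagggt
Mepe, chr5:104325079-104325328: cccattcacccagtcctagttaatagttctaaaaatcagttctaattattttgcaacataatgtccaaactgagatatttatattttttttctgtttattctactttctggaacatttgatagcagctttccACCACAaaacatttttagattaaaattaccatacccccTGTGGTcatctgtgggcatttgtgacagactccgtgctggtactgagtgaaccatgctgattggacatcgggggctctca
A match is a description of the letters only, and binding was not measured.

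Some marker lists of neighbouring tissues are given beside the 10 genes, and their part in the results was not tested. The 11 cartilage genes, led by *Col11a1*, summed to 92.9, 538, 293 and 89.8 CPM without an operation, 77.8, 183, 310 and 229 CPM after SHAM surgery and 1068, 1813, 777 and 535 CPM after laminectomy, with 4 called higher in Laminectomy mice and 1 in SHAM mice against No operation mice. The 8 osteoclast genes, led by *Ctsk*, summed to 256, 853, 423 and 193 CPM without an operation, 563, 845, 693 and 864 CPM after SHAM surgery and 2939, 1382, 1499 and 1730 CPM after laminectomy. In Laminectomy mice 7 of the 8 were called higher than in No operation mice, and in SHAM mice 3 were called higher and 1 lower. Between Laminectomy and SHAM mice edgeR called 0 genes of either list. There 8 of 9 cartilage genes and 7 of 8 osteoclast genes had an unadjusted p below 0.05 in edgeR. Over all 14765 genes the number was 2360. DESeq2 called 5 of each list, beside 601 of all genes. The osteoclast sum was highest in Laminectomy replicate 1, and *Dmp1*, *Phex*, *Mepe* and *Sost* were highest among Laminectomy mice in replicate 2.

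The 6 genes of red cell precursors, led by *Slc4a1*, summed to 38.8, 603, 273 and 16.7 CPM without an operation, 14.1, 25.9, 48.4 and 70.4 CPM after SHAM surgery and 219, 188, 381 and 45.3 CPM after laminectomy, with 1 called lower in SHAM mice by edgeR and 3 called by DESeq2. Between Laminectomy and SHAM mice edgeR called 0 of them and DESeq2 1, with 1 and 2 at an unadjusted p below 0.05. Over all 14765 genes, 2360 and 2614 were at that p there. DESeq2 called 7672 of all genes between SHAM and No operation mice and 601 between Laminectomy and SHAM mice. Of the 7 granulocyte precursor genes, edgeR and DESeq2 each called 0 in any comparison, and 0 had an unadjusted p below 0.05 with either tool. The skeletal muscle genes, led by *Myh4*, summed to 83655 to 116963 CPM without an operation, 2091 to 8554 CPM after SHAM surgery and 2905 to 12044 CPM after laminectomy. Of 7 fibroblast genes, led by *Col3a1*, 4 were called higher and 1 lower in each surgical group, with sums of 4665 to 15042 CPM without an operation, 28936 to 39179 CPM after SHAM surgery and 18860 to 27257 CPM after laminectomy. Of 4 tendon genes, led by *Fmod*, 3 were called lower in SHAM mice and 1 in Laminectomy mice, with sums of 1318 to 4734, 89.6 to 501 and 440 to 785 CPM in the 3 groups.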

How the data were processed

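The authors aligned reads with STAR 2.6.1b to GRCm38, counted them per gene with featureCounts 2.0.1 and deposited values per gene without normalization. Since 10.2% of the values deposited by the authors are not whole, they were treated as estimated counts and rounded before tests. The source of the fractions is not given in the sources used here. All 4 mice per group were used here, since the 3 per group that the study reports using are not named. The design had assumed counts. Genes were filtered by filterByExpr and scaled by TMM, and the 12 mice were fitted together in edgeR 4.0.16 (R 4.3.3). The SE is the absolute log2 fold change divided by the square root of F. DESeq2 1.42.0 was an alternative, first run without that filter; the run on the same filtered genes came later, with its count of genes called already known, and both are given. The fit was tested on simulated data. Log2 CPM used a prior count of 2.

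The members and lists were chosen with earlier results of these data known. Named were the 10 members, the 2 other bone genes with the largest called change per role (mean of at least 1 CPM), *Spp1*, *Dspp* and *Bglap3* as neighbours, the 5 genes most like *Ibsp* and *Dmp1*, and each marker list's most abundant gene. Some results of these lists are not reported here. *Runx2os1*, *Myl3* and the genes named under alternatives fall outside this rule. Coordinates are from RefSeq, exon overlaps and lengths from GENCODE.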

Additional observations from a re-analysis of the deposited data

Results flagged for a closer look

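In the 30 sets of 4 mice formed by the 10 genes and 3 groups, 1 value lay far from the others of its group. *Bglap2* in SHAM replicate 4 was at 2.26 CPM, and the gap to the next mouse was 0.834 of the whole range, above Dixon's critical value for 4 samples. Chance flags about 1 in 20 such sets. The same mouse had the highest *Bglap*, *Dmp1* and *Phex* of the SHAM mice, and the highest sum of granulocyte precursor genes, 618 CPM. The high values of No operation replicate 2 were not singled out this way, since replicate 3 lay between it and the others.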

How the results depend on the processing

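The counts of genes called against No operation mice were 7502 (SHAM) and 7183 (Laminectomy). They became 4589 and 4323 when an absolute log2 fold change above 1 was required, and lay between 6966 and 7642 and between 6534 and 7416 when 1 mouse was left out. Between Laminectomy and SHAM mice edgeR called 0 genes in each of its alternatives (2360 at an unadjusted p below 0.05), whereas DESeq2 called 601 on the filtered genes and 696 without the filter; the cause was not tested. The DESeq2 run on the filtered genes was made after the one without the filter, with its count known from earlier results of these data, and the sum of osteocalcin copies was chosen after seeing the data.

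Members called lower in SHAM mice numbered 2, and 5 with DESeq2, 4 with DESeq2 without the filter, 1 with only both groups fitted and 1 with the osteocalcin copies summed, but *Bglap2* was not tested as a gene of its own in either of these fits. Leaving out 1 mouse gave 1 to 6 lower and 0 to 1 higher (*Runx2*, without No operation replicate 2). Between Laminectomy and No operation mice, members called higher numbered 1, and 3 with either DESeq2 run, 2 with only both groups fitted, and 1 to 5 with 1 mouse left out, with 0 lower throughout. Between Laminectomy and SHAM mice 0 members were called by edgeR (8 at an unadjusted p below 0.05) and 1 higher by either DESeq2 run, with 0 when 1 mouse was left out. The cause was not tested.

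Other bone genes called lower in Laminectomy mice went from 5 to 3 with a log2 fold change above 1. Between Laminectomy and SHAM mice DESeq2 called 10 higher and 1 lower in either run, against 0 and 0 by edgeR. Over all genes DESeq2 called 265 higher and 336 lower with the filter, and 337 and 359 without it. With 1 mouse left out, 10 to 11 were called higher and 8 to 10 lower in SHAM mice, and 11 to 20 higher and 5 to 7 lower in Laminectomy mice.

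Correlations of same-numbered mice across groups, as deviations from group means, ran from -0.228 to 0.352. They were 0.069 to 0.352 between Laminectomy and No operation mice and of both signs in the other comparisons. With 4 mice per group they cannot decide whether mice of the same number were paired or shared a batch. With the replicate number as a block, 7440 genes were called for SHAM and 7153 for Laminectomy relative to No operation mice, and 0 between both, 2 members were called higher in Laminectomy mice, and *Alpl* and *Sost* were called lower in SHAM mice. Of 240 member fold changes without 1 mouse of the groups compared, 20 moved by more than their SE, 16 of them without No operation replicate 2. Depth limits *Sost* and *Mepe*, with few counts in SHAM mice.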
